A study of Homo sapiens with 6 samples.

Results

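The BCL2 family was read in RNA-seq libraries of HCCLM3, an established human hepatocellular carcinoma line, after 24 h with CC-885 (3 libraries) or with the solvent DMSO (3 libraries). The 10 members were chosen by name: MCL1, BCL2, BCL2L1, BCL2A1, BAX, BAK1, PMAIP1, BBC3, BMF and BCL2L11. All 10 had a row among the 20263 genes of the count table, 9 had a count above 0, and those 9 passed the filter on low counts. CC-885 is a small molecule that binds cereblon, which selects the targets of a CUL4-based ubiquitin ligase, and directs that ligase to proteins such as the translation termination factor GSPT1. Cells of both groups came from the same line and were grown in DMEM with fetal bovine serum, and the sources used here do not give the dose. No label states whether replicates were separate cultures, so the p-values rest on a spread between libraries that may be only technical.

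Proteins of this family decide whether the outer mitochondrial membrane is opened during apoptosis. BAX and BAK1 form the pore, MCL1, BCL2, BCL-XL (encoded by BCL2L1) and BCL2A1 hold them in check, and the BH3-only proteins NOXA (PMAIP1), PUMA (BBC3), BIM (BCL2L11) and BMF bind the guardians or the pore formers and so promote death. MCL1 is a short-lived protein that hepatocytes and many liver cancers depend on, and NOXA is known for binding MCL1. The libraries measure mRNA, not these proteins, and a gene-level count does not separate splice forms such as the long and short forms of MCL1 or BCL2L1.

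The promoter sequences of the member with the largest rise (PMAIP1) and of the pore-forming gene that was lower (BAX) are shown because of the short motifs they hold. The sequences are those of RefSeq (GRCh38.p14), written 5′ to 3′ on the strand of the gene from 250 bases before its start up to, and without, the first base that GENCODE 29 annotates as an exon of the gene, with motif matches in capitals. PMAIP1 is shown at chr18:59899746-59899947 (plus strand) and BAX at chr19:48954625-48954814 (plus strand).
PMAIP1: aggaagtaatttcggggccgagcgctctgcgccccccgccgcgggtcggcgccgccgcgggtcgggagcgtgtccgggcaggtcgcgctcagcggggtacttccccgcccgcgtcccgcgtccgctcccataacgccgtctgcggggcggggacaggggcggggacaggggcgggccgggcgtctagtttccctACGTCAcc
BAX: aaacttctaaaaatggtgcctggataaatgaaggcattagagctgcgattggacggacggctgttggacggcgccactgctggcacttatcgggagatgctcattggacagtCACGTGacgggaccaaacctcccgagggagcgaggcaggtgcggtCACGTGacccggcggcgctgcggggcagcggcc

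RefSeq entries were matched for 9 of the 10 members (11 entries, all except MCL1). In the 250 bases before each start, 6 motifs were searched on both strands: the core of the cyclic AMP response element (TGACGT), the composite element of C/EBP and ATF factors (TGATGNAA), the AP-1 site (TGANTCA), the forkhead site (GTAAACA), the E-box (CACGTG) and the kappa B site. The PMAIP1 window held the cyclic AMP response element core on the opposite strand at -56 to -51 from the start, a match that 7.10% of 35116 human promoter windows had. The BAX window held 4 E-boxes, of which the pair farther from the start is shown above. The pair nearer the start lay in an annotated exon of BAX. Of all windows, 6.34% held at least 1 E-box and 5 (0.0142%), that of BAX among them, held 4 or more. The cutoff of 4 was taken from BAX itself, so this share only describes its window. BCL2L11 had a forkhead site (2.98% of windows), BCL2A1 a composite C/EBP-ATF element (3.14%) and BBC3 an AP-1 site (6.57%) and an E-box. No match was found in the windows of BCL2, BCL2L1, BAK1 or BMF, and no member's matches overlapped each other. These are matches of letters and do not show binding. All 250 bases of the BCL2 and BCL2A1 windows, and 230 in BCL2L1 entry 2, lay in exons of the gene annotated by GENCODE 29. The BCL2A1 match thus lay in an annotated exon. The bases right after the start of BMF entry 2 were found in no GENCODE 29 transcript of the gene.

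The libraries held 30432509 to 39809131 counts each. Of 13444 genes tested, 52.6% passed an adjusted p below 0.05 (edgeR quasi-likelihood test, Benjamini-Hochberg adjustment), 25.8% as higher and 26.8% as lower with CC-885, so a call is common in these data. Of 14 hepatocyte and hepatocellular carcinoma genes, 6 (among them ALB, AFP and APOB) had 0 counts in every library and 10 stayed below 1 CPM (counts scaled to a common library total, with TMM factors), while the keratins KRT8 and KRT18 were abundant. The summed level of these 14 genes, mostly from these keratins, was 1366 to 1658 CPM with CC-885, against 1809 to 2214 CPM with DMSO. Of the 4 tested genes among them, 0 were higher and 2 lower. These were KRT8 (890 CPM with CC-885, against 1251 CPM with DMSO, adjusted p = 0.0236) and HNF4A (0.213 CPM, against 1.25 CPM, adjusted p = 0.00156), named after their values were seen. HNF4A had only 5, 16 and 2 counts in CC-885 libraries, and KRT8 and KRT18 overlap each other on opposite strands. Of 11 genes of leukocytes, endothelium and fibroblasts, PTPRC and CD3E were at 0, and the summed level was 159.7 to 193 CPM with CC-885, against 164 to 194 CPM with DMSO, COL1A1 being its most abundant gene. These sums hide moves in both directions, since 3 of the 8 tested genes of this list were higher and 2 lower. Named after their values were seen, the higher genes were COL1A1 (155 CPM with CC-885, against 104 CPM with DMSO), CDH5 (2.11 CPM, against 0.168 CPM) and VWF (log2 fold change 1.01, adjusted p = 0.0232), and the lower genes were PDGFRB (log2 fold change -2.33, adjusted p = 8.63e-07) and DCN (0.126 CPM, against 1.21 CPM). CDH5, VWF and DCN stayed below 3 CPM in every library, and VWF lost its call without CC-885 replicate 1, DMSO replicate 1 or DMSO replicate 2 (adjusted p over 14 alternatives between 0.0105 and 0.116). KRT8, HNF4A, COL1A1, CDH5 and DCN were not rerun under the alternatives. The part of either list in the results below was not tested.

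With CC-885, 4 of the 9 tested members were higher, namely PMAIP1, BCL2L1, BAK1 and MCL1, and 2 were lower, namely BAX and BMF. BCL2, BBC3 and BCL2L11 did not pass the test, and BCL2A1 had no counts. Without CC-885 replicate 2 the higher members were 2, and without DMSO replicate 3 the lower member was 1. These 6 calls among 9 members stand against the 52.6% of all tested genes that were called (25.8% higher and 26.8% lower). The median log2 fold change was 0.28 over the 9 members and -0.04 over all tested genes. The groups did not overlap for 7 of the 9 members, 5 with every CC-885 library above and 2 with every CC-885 library below, as for 61.1% of all tested genes (29.9% above and 31.2% below). All changes are relative to the other RNAs of a library, and fewer cells with a transcript cannot be told apart from less of it per cell.

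**Figure D1:**
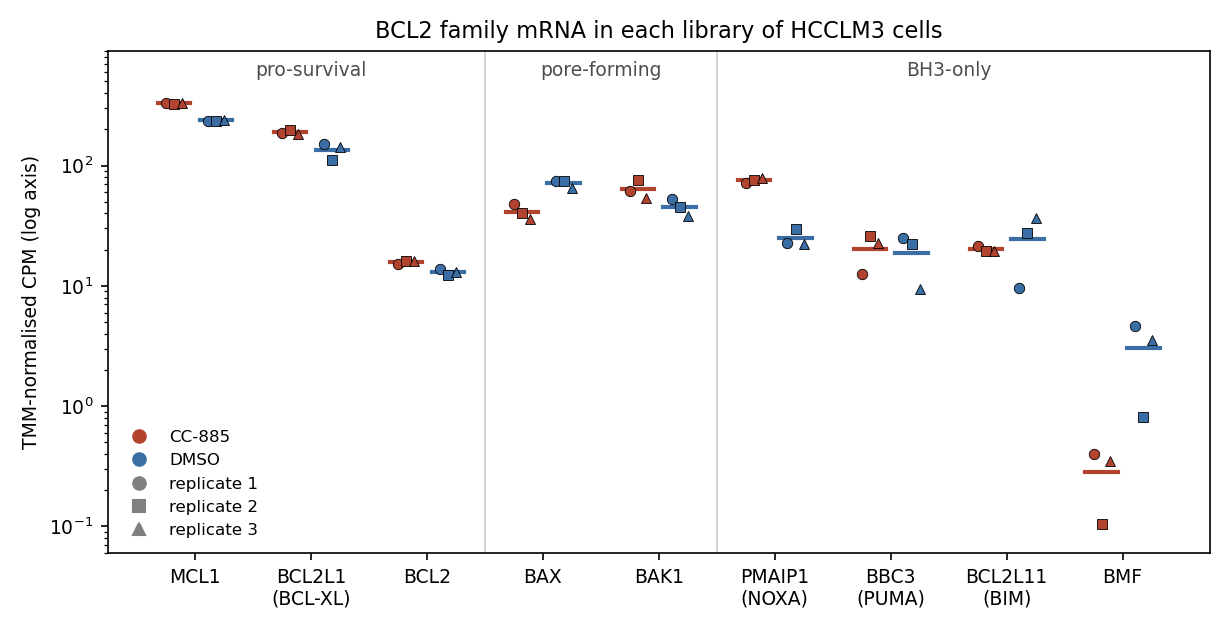
TMM-normalised CPM of the 9 members with counts, on a log axis, in each library with CC-885 (left of each gene) and DMSO (right of each gene), with group means as lines and replicate numbers as symbols. PMAIP1 stood at 71.4 to 78.7 CPM with CC-885, against 22.2 to 29.7 CPM with DMSO, and BMF was below 0.5 CPM in every CC-885 library.

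Among the pro-survival genes, MCL1 (ENSG00000143384, chromosome 1) had the highest level per kilobase of exon, as given below, and the smallest spread between libraries. It stood at 334, 323 and 331 CPM in CC-885 libraries, against 236, 237 and 238 CPM in DMSO libraries. Each CC-885 library thus lay above each DMSO library, with a spread of 1.62% of the mean with CC-885, against 0.247% with DMSO. The DMSO spread is below the counting error expected of 7744 to 9062 counts, so it does not measure how steady MCL1 is. The log2 fold change was 0.48 (SE 0.12, adjusted p = 0.0072), a 1.39-fold higher level. In size this was an ordinary change here, since 47.9% of tested genes had a smaller absolute log2 fold change. Counts of MCL1 are less certain because exons of ADAMTSL4-AS1 overlap it on the same strand.

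BCL2L1 (ENSG00000171552, chromosome 20), the gene of BCL-XL, changed by a like amount. Its levels were 186, 199 and 182 CPM with CC-885, against 149.7, 112 and 142 CPM with DMSO, and the groups did not overlap. This was a log2 fold change of 0.49 (SE 0.14, adjusted p = 0.0124). The call was lost without CC-885 replicate 2 (log2 fold change 0.46, adjusted p = 0.0527), and over all 15 alternatives the adjusted p ran between 0.000659 and 0.0527. Offsets for GC content and transcript length raised its log2 fold change to 0.67 (adjusted p = 0.000659). The gene overlaps the antisense transcript ABALON. No source says that reads were counted by strand, and without strand the reads of a gene and its antisense partner are mixed.

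BCL2 (ENSG00000171791, chromosome 18), the founding member and the target of venetoclax, had a low level for its length, with 1.34 ± 0.0367 CPM per kilobase of exon with CC-885, against 1.11 ± 0.066 with DMSO (SD, n = 3 each). It reached 15.3, 16.0 and 16.0 CPM with CC-885, against 13.8, 12.2 and 13.0 CPM with DMSO. Every CC-885 library was above every DMSO library, yet the log2 fold change of 0.28 (SE 0.14, adjusted p = 0.111) did not pass the test. Its 95% interval ran from -0.02 to 0.58, and none of the 15 alternatives called it. BCL2A1 (ENSG00000140379, chromosome 15), a guardian that NF-kB induces in blood cells, had 0 counts in all 6 libraries. A count of 0 allows at most 0.0754 to 0.0986 CPM (3 counts of a library's total, counting error only), so no fold is given.

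**Figure D2:**
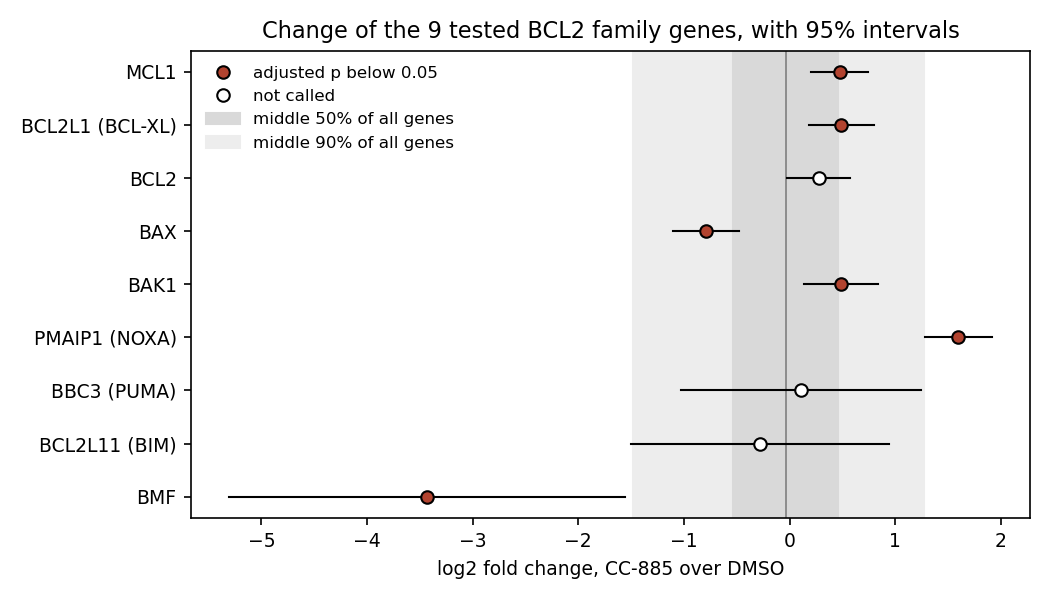
Log2 fold change of CC-885 over DMSO for the 9 tested members with 95% intervals, filled where the adjusted p was below 0.05, over the middle 50% and 90% of all tested genes as grey bands. PMAIP1 (1.60) and BMF (-3.43) lie outside the wider band, and MCL1, BCL2L1 and BAK1 lie close to the edge of the narrower band.

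The pore-forming genes moved in opposite directions. BAX (ENSG00000087088, chromosome 19) was lower, with 48.3, 40.2 and 35.7 CPM in CC-885 libraries, against 75.1, 74.7 and 65.1 CPM in DMSO libraries. Its groups did not overlap, and its log2 fold change was -0.79 (SE 0.14, adjusted p = 0.000776), which is 1.73-fold lower. All 15 alternatives called it (adjusted p between 8.38e-06 and 0.00585), but the log2 fold change shrank to -0.46 once offsets for GC content and transcript length were used (adjusted p = 0.00366).

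BAK1 (ENSG00000030110, chromosome 6) was higher, at 61.6, 75.4 and 54.2 CPM with CC-885, against 52.8, 45.4 and 38.4 CPM with DMSO. The gap between the groups was narrow, since the lowest CC-885 library stood just above the highest DMSO library. Its log2 fold change was 0.48 (SE 0.16, adjusted p = 0.0242). This call depended on single libraries: it was lost on leaving out CC-885 replicate 2 (0.35, adjusted p = 0.125), DMSO replicate 2 (0.49, adjusted p = 0.0562) or DMSO replicate 3 (0.37, adjusted p = 0.0567), with adjusted p over all 15 alternatives between 0.00259 and 0.125. Offsets for GC content and transcript length raised the log2 fold change of BAK1 to 0.72 (adjusted p = 0.00259). Exons of GGNBP1 overlap BAK1 on the opposite strand.

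The ratio of BAX to BAK1 counts within a library turned over between the groups. It was 0.785, 0.534 and 0.659 in CC-885 libraries, against 1.42, 1.64 and 1.69 in DMSO libraries. A ratio within a library does not depend on how libraries are scaled. Here it shows only that the BAX and BAK1 mRNAs did not change by the same factor, not that each of them changed. The ratio of BCL2L1 to BAX was 3.85, 4.94 and 5.10 with CC-885, against 1.99, 1.50 and 2.18 with DMSO, so this guardian was more abundant relative to BAX in every CC-885 library.

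Among the BH3-only genes, PMAIP1 (ENSG00000141682, chromosome 18), which encodes NOXA and is a known target of ATF4, had the largest rise of the family. It stood at 71.4, 76.0 and 78.7 CPM with CC-885, against 22.8, 29.7 and 22.2 CPM with DMSO. The lowest CC-885 library was well above the highest DMSO library. The log2 fold change was 1.60 (SE 0.14, adjusted p = 7.83e-06), a 3.03-fold higher level with a 95% interval of 2.43 to 3.77, and a larger absolute change than that of 92.8% of tested genes. All 15 alternatives called it, with log2 fold changes between 1.52 and 1.76. No exon of another annotated gene overlaps PMAIP1.

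NOXA mRNA therefore gained on the mRNAs of the guardians. The ratio of MCL1 to PMAIP1 counts was 4.67, 4.25 and 4.21 in CC-885 libraries, against 10.4, 7.97 and 10.7 in DMSO libraries. The ratio of BCL2L1 to PMAIP1 was 2.60, 2.61 and 2.31 with CC-885, against 6.58, 3.78 and 6.40 with DMSO. The groups did not overlap in either ratio, while the ratio of MCL1 to BCL2L1 overlapped, at 1.79, 1.63 and 1.82 with CC-885, against 1.58, 2.11 and 1.67 with DMSO.

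**Figure D3:**
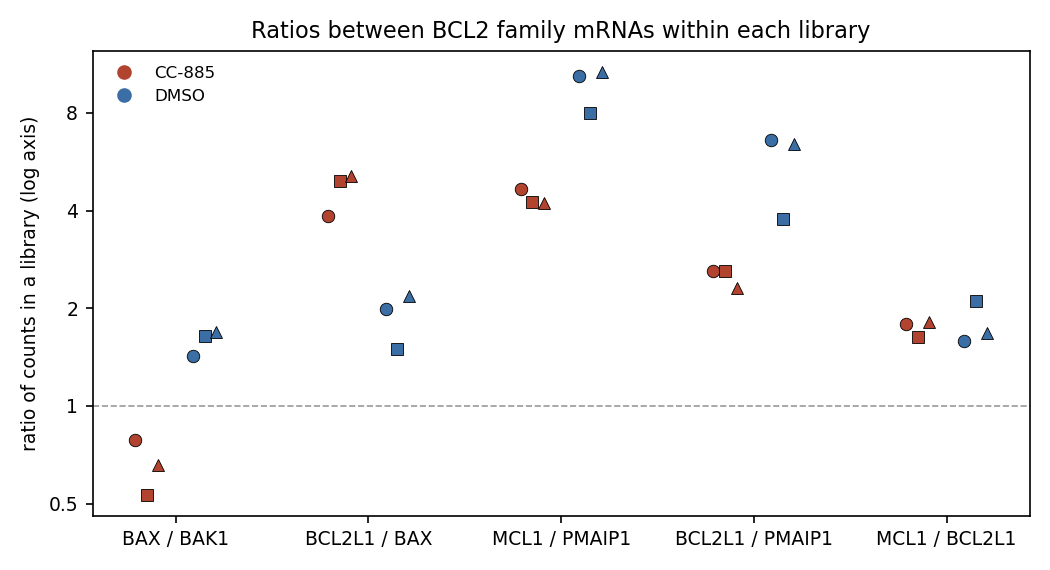
Ratio of counts between pairs of members within each library, on a log axis, for CC-885 (left) and DMSO (right) with replicate numbers as symbols. BAX over BAK1 is below 1 in the 3 CC-885 libraries and above 1 in the 3 DMSO libraries, and only MCL1 over BCL2L1 overlaps between the groups among the 5 ratios drawn.

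BMF (ENSG00000104081, chromosome 15), whose protein is held at the cytoskeleton in healthy cells, was rare and lower with CC-885. Its counts were 12, 4 and 12 in CC-885 libraries, against 179, 30 and 116 in DMSO libraries, or 0.4, 0.104 and 0.349 CPM with CC-885, against 4.67, 0.817 and 3.56 CPM with DMSO. The groups did not overlap, but DMSO replicate 2 lay much closer to the CC-885 libraries than the other DMSO libraries did. The log2 fold change was -3.43 (SE 0.78, adjusted p = 0.0103), with a wide 95% interval from -5.30 to -1.55. The call was lost without DMSO replicate 3 (-3.29, adjusted p = 0.0587), and over 14 alternatives the adjusted p ran between 4.00e-08 and 0.0587. BMF overlaps BMF-AS1 on the opposite strand.

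BBC3 (ENSG00000105327, chromosome 19), the gene of PUMA, varied as much within groups as between them. It had 12.5, 26.1 and 22.6 CPM with CC-885, against 25.2, 22.1 and 9.36 CPM with DMSO, and the groups overlapped. The log2 fold change was 0.11 (SE 0.45, adjusted p = 0.853) with a 95% interval from -1.03 to 1.25, so a change of 2-fold in either direction lay within it. Leaving out CC-885 replicate 2 turned it to -0.10 (adjusted p = 0.898), leaving out DMSO replicate 3 turned it to -0.21 (adjusted p = 0.592), and it was 0.61 under offsets for GC and length (adjusted p = 0.279), with adjusted p over all 15 alternatives between 0.279 and 0.960.

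BCL2L11 (ENSG00000153094, chromosome 2), the gene of BIM, was even in one group and uneven in the other. The CC-885 libraries gave 21.5, 19.4 and 19.3 CPM and the DMSO libraries 9.55, 27.3 and 36.5 CPM, so that the highest DMSO library was 3.82-fold above the lowest. The log2 fold change of -0.28 (SE 0.48, adjusted p = 0.657) did not pass the test. This rested on DMSO replicate 1: without it BCL2L11 was called lower (-0.66, adjusted p = 0.0103), while without DMSO replicate 3 the sign turned (0.12, adjusted p = 0.873). Adjusted p over all 15 alternatives ran between 0.0103 and 0.899. BCL2L11 overlaps MIR4435-2HG on the opposite strand, and BBC3 overlaps the microRNA genes MIR3190 and MIR3191.

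**Figure D4:**
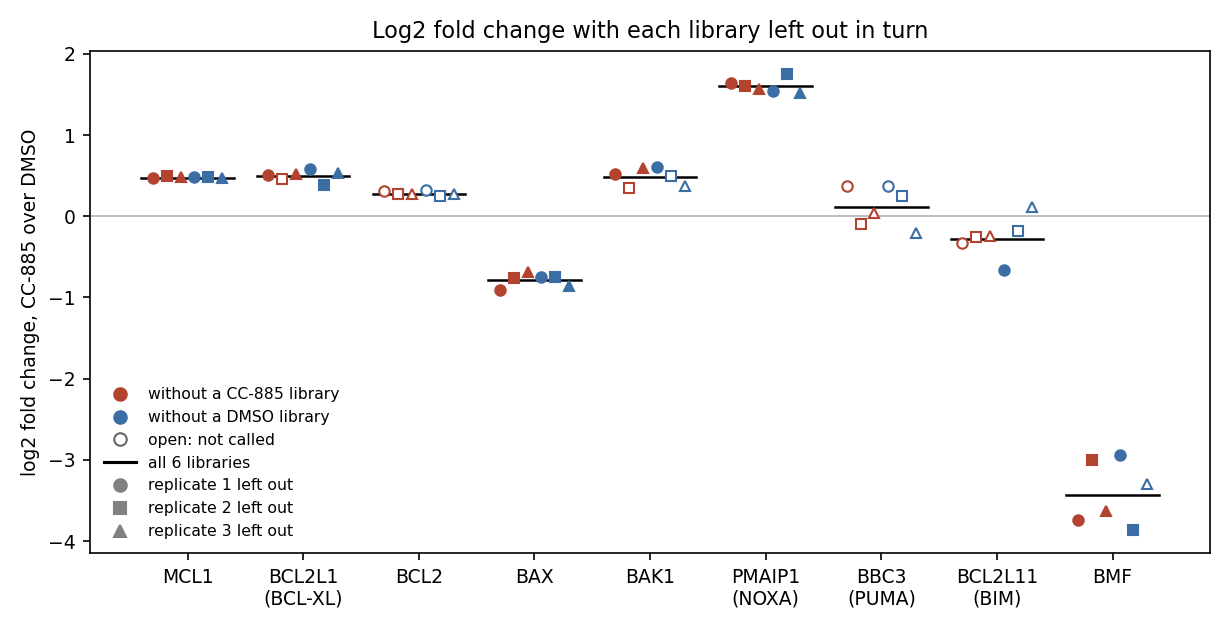
Log2 fold change of each tested member with all 6 libraries (black line) and with each library left out in turn (points, open where the adjusted p was 0.05 or above). MCL1, BAX and PMAIP1 stay called in all 6 fits, BAK1 loses its call in 3 of them, BCL2L1 and BMF lose theirs in 1 each, and BBC3 and BCL2L11 cross 0.

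Levels between members were compared as CPM per kilobase of the gene's annotated exons (GENCODE 29), which understates genes with long or rarely used exons. With CC-885 the order was MCL1 (75.4 ± 1.22), BCL2L1 (57.0 ± 2.62), PMAIP1 (33.7 ± 1.65), BAK1 (28.8 ± 4.86), BAX (16.0 ± 2.47), BBC3 (6.41 ± 2.22), BCL2L11 (3.02 ± 0.188), BCL2 (1.34 ± 0.0367) and BMF (0.0522 ± 0.029) CPM per kilobase (mean ± SD, n = 3). With DMSO it was MCL1 (54.2 ± 0.134), BCL2L1 (40.6 ± 5.98), BAX (27.7 ± 2.18), BAK1 (20.6 ± 3.26), PMAIP1 (11.1 ± 1.87), BBC3 (5.94 ± 2.64), BCL2L11 (3.67 ± 2.06), BCL2 (1.11 ± 0.066) and BMF (0.554 ± 0.364) CPM per kilobase. PMAIP1 and BAX thus exchanged places, PMAIP1 standing above BAX and BAK1 with CC-885 and below both with DMSO. Neighbours in these orders had separate ranges over the libraries, except PMAIP1 and BAK1 with CC-885 and BBC3 and BCL2L11 with DMSO.

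The other genes of the BCL2 family numbered 11, of which 8 were tested, 3 were higher and 1 was lower (median log2 fold change 0.30). The counts of this and the following lists stand beside the same 25.8% higher and 26.8% lower over all tested genes. BIK, a BH3-only gene, was rare and higher, at 3.10, 3.25 and 2.79 CPM with CC-885, against 1.30, 1.88 and 1.44 CPM with DMSO (log2 fold change 0.98, adjusted p = 0.00413). HRK, another BH3-only gene, was higher (0.66, adjusted p = 0.00597), as was BCL2L13, a mitochondrial member also known as a mitophagy receptor (0.50, adjusted p = 0.00665). The lower member was BAD, a BH3-only protein controlled by phosphorylation (-0.53, adjusted p = 0.0387), whose groups overlapped and whose log2 fold change was -0.04 under GC and length offsets (adjusted p = 0.831). The adjusted p of BAD ran between 0.000692 and 0.831 over 15 alternatives and 7 of these did not call it, among them every fit that left out 1 library except that without DMSO replicate 3. BAD overlaps GPR137 on the opposite strand. BCL2L2, the gene of BCL-W, was not called (-2.17, adjusted p = 0.159). It is named after its values were seen, because DMSO replicate 3 stood far above the other libraries. BCL2L2 gave 3.66, 2.08 and 3.37 CPM with CC-885, against 6.47, 2.78 and 31.8 CPM with DMSO. With each library left out in turn its log2 fold change ran from -2.64 to -0.61. BCL2L2 overlaps BCL2L2-PABPN1 on the same strand and PPP1R3E on the opposite strand.

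Downstream of the pore, 14 genes of the mitochondrial arm (cytochrome c, the apoptosome, caspases, inhibitors of apoptosis and membrane channels) were all tested, with 4 higher and 0 lower and a median log2 fold change of 0.08. By edgeR 0 were lower also at an unadjusted p below 0.05, and limma-voom and DESeq2 called 0 lower as well, though 1 gene was lower without DMSO replicate 3. BIRC3, an inhibitor of apoptosis and a target of NF-kB, stood at 49.8, 51.5 and 65.8 CPM with CC-885, against 10.3, 11.7 and 8.19 CPM with DMSO, the largest change of the list (log2 fold change 2.47, adjusted p = 1.69e-06). Its relative BIRC2 was higher as well (1.03, adjusted p = 0.00145). The initiator caspase CASP9 was at 156, 195 and 134 CPM with CC-885, against 106, 97.8 and 77.0 CPM with DMSO (0.79, adjusted p = 0.00243), and overlaps CELA2B on the opposite strand.

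In the death receptor arm, 3 of 9 genes were higher and 4 lower, beside 25.8% and 26.8% of all tested genes (median log2 fold change 0.18), the lower count being 2 without CC-885 replicate 3 and 2 without DMSO replicate 2. The TRAIL receptors rose: TNFRSF10A lay between 72.1 and 84.4 CPM with CC-885 and between 40.6 and 41.3 CPM with DMSO (log2 fold change 0.90, adjusted p = 0.000114), and TNFRSF10B had a log2 fold change of 0.53 (adjusted p = 0.0071). RIPK1, a kinase at these receptors, was also higher (0.39, adjusted p = 0.0388), a call that 7 of 15 alternatives did not make (adjusted p between 0.00783 and 0.119). FAS, another death receptor, fell to 3.76, 3.33 and 3.89 CPM with CC-885, against 9.11, 13.4 and 7.88 CPM with DMSO (-1.47, adjusted p = 0.000189). The adaptors FADD (-0.88, adjusted p = 0.0011) and TRADD (-0.53, adjusted p = 0.0175) were lower, TRADD losing its call in 4 of 15 alternatives (adjusted p between 0.00252 and 0.306), among them GC and length offsets, which gave -0.17, and the fits without CC-885 replicate 3, DMSO replicate 1 or DMSO replicate 2. Each of these 6 genes overlaps an annotated gene on the opposite strand, which for FAS is ACTA2.

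**Figure D5:**
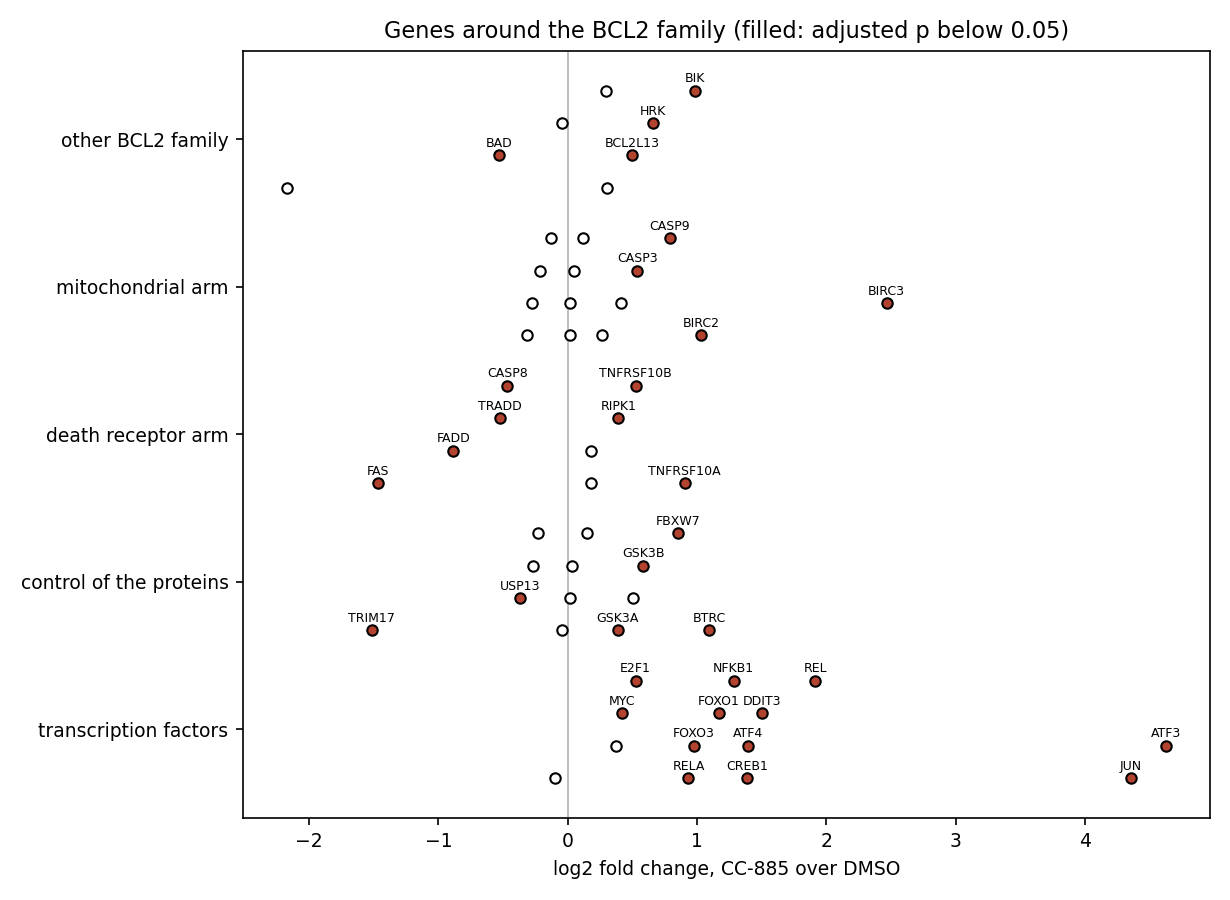
Log2 fold change of CC-885 over DMSO for the tested genes of 5 lists around the family, filled and named where the adjusted p was below 0.05. Transcription factors lie mostly to the right of 0, with 12 of 14 higher, while the death receptor arm has 3 genes higher and 4 lower.

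Of 14 transcription factors known to act on genes of the family, 12 were higher (median log2 fold change 1.22). ATF3, a stress-induced factor, was at 393 ± 53.4 CPM with CC-885, against 15.9 ± 2.83 CPM with DMSO (SD, n = 3 each; log2 fold change 4.62, adjusted p = 4.44e-08). JUN, a subunit of AP-1 (4.35, adjusted p = 5.36e-08), and REL, an NF-kB subunit (1.91, adjusted p = 4.23e-06), followed. Factors tied to the motifs above are named after their values were seen: ATF4 (1.39, adjusted p = 1.62e-05) and CREB1 (1.39, adjusted p = 0.00555), which bind cyclic AMP response elements or related sites, and MYC (0.42, adjusted p = 0.0287), which binds E-boxes, were higher. MYC lost its call in 6 of 15 alternatives (adjusted p between 0.00852 and 0.144), namely library size only, the filter at 5 CPM, and without CC-885 replicate 1, 2 or 3 or DMSO replicate 1. FOXO1 (1.17, adjusted p = 0.00013) and FOXO3 (0.97, adjusted p = 0.000321), which bind forkhead sites, were higher too. BCL2L11, whose window held that site, was not called (-0.28). BBC3, whose window held an AP-1 site and an E-box, was not called either (0.11), with JUN and MYC higher. BAX, whose window held E-boxes, was lower (-0.79), and BCL2A1, with a composite C/EBP-ATF element, had 0 counts. Whether any factor acts on a member through these motifs was not tested. CREB1 overlaps an annotated gene on the opposite strand, and REL and FOXO1 each overlap one on the same strand.

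In the list of genes that control the proteins of the family, 4 of 13 were higher and 2 lower (median log2 fold change 0.03), the lower count being 1 on leaving out any library except DMSO replicate 2, and 4 under GC and length offsets. BTRC, a substrate receptor of an SCF ubiquitin ligase, was at 105, 119 and 114 CPM with CC-885, against 53.1, 49.9 and 54.9 CPM with DMSO (1.09, adjusted p = 2.89e-05). FBXW7, a second such receptor that recognises MCL1 (0.85, adjusted p = 0.000654), and GSK3B, the kinase that marks MCL1 for it (0.58, adjusted p = 0.00379), were also higher. TRIM17, a ligase for MCL1 described in neurons, was rare and lower (-1.52, adjusted p = 0.00177), and the deubiquitinase USP13 was lower (-0.37, adjusted p = 0.0275), a call that 5 of 15 alternatives did not make (adjusted p between 0.00151 and 0.137). FBXW7 and TRIM17 overlap genes on the opposite strand. HUWE1, the large ligase of MCL1 also called MULE, did not pass the test (0.50, adjusted p = 0.07) and is named after its values were seen. It was called higher in 4 of 15 alternatives (adjusted p between 0.00181 and 0.141), among them the DESeq2 test, GC and length offsets, and the fit without DMSO replicate 3 (0.74).

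Genes with the most similar pattern were sought among 10802 tested genes with a mean of at least 5 CPM, by the root mean square distance of log2 CPM centred over the 6 libraries. Nearest to MCL1 were DYRK2 (distance 0.0324), a protein kinase, RNF25 (0.0347) and CORO1C (0.0387), with log2 fold changes of 0.50, 0.48 and 0.46 (0.28 for DYRK2 and 0.73 for RNF25 under GC and length offsets). Nearest to PMAIP1 were RIMKLB (0.0252), GRPEL2 (0.0662), a mitochondrial co-chaperone, and AZIN1 (0.0712), an inhibitor of antizyme, with log2 fold changes of 1.60, 1.52 and 1.53. RIMKLB followed PMAIP1 at a higher level, at 409.7 CPM with CC-885, against 135 CPM with DMSO. For BMF the nearest of the searched genes were ACTA2 (0.632), FOXN1 (0.725) and ALDH3A1 (0.809), with log2 fold changes of -2.84, -2.81 and -2.41. BMF itself stayed below 5 CPM in every library, so genes as rare as BMF were not searched. The search therefore cannot decide whether BMF has a close neighbour, and the part of its low counts in these distances was not tested.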

How the data were processed

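Messenger RNA was measured by RNA sequencing in 6 libraries, 3 per group. The deposited table holds raw whole-number counts per Ensembl gene, per the file header and the values. Libraries were built with an mRNA kit named dual-mode, per the labels' protocols. The sources used here do not state the strand mode, aligner or counter. Mouse builds (GRCm38, mm10) stand in the submitters' processing notes although the 20263 identifiers are all human, so no build is given for the counts. Identifiers were named from a gene name table (20148) or GENCODE 29 (76), and 39 had no name.

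Counts were fitted with edgeR 4.0.16 under R 4.3.3 (TMM factors, filterByExpr with a minimum count of 10, robust quasi-likelihood F test, no covariate), with Benjamini-Hochberg adjustment over all 13444 tested genes and a threshold of 0.05. A standard error is the size of the log2 fold change divided by the root of its F value. Of counts from 1 to 20, 65.5 to 67.8% were even, so a fragment may have been counted more than once, and a count of 0 then allows more than the limits given. The fit was tested on simulated data. These had few changed genes and the same dispersion for every gene, unlike the libraries here, so they do not test the calls made here. Alternatives were DESeq2 1.42.0, limma-voom (limma 3.58.1), other scalings and filters, halved counts, a replicate block, GC and length offsets, and each library left out. Deviations of libraries with the same replicate number correlated by 0.0958, 0.0311 and 0.0722. Without the values for unlike numbers beside them, these cannot decide whether the numbers mark pairs. The main fit took no pairs, and the replicate block is the alternative that does.

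The members, lists and tests were chosen with earlier results of these data known. All members are named, and in each other list up to 3 higher and 3 lower called genes with the smallest p. Genes of similar pattern were sought for MCL1 and the called members with the largest rise and fall. Genes named outside this rule are marked. The transcription factor list and the motif search leave out an item that is not reported here.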

Additional observations from a re-analysis of the deposited data

How the results depend on the processing

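The members called were 4 higher and 2 lower in each of 8 of the 9 settings other than leaving out a library. Under a filter that asked for 5 CPM in 3 libraries, BMF was not tested and 1 member was lower. Without single libraries 2 to 4 members were higher and 1 to 3 were lower, and the log2 fold change ran from 0.38 to 0.58 for BCL2L1, from 0.35 to 0.61 for BAK1, from -0.21 to 0.37 for BBC3, from -3.87 to -2.94 for BMF and from -0.66 to 0.12 for BCL2L11. The replicate block changed no call of a member: PMAIP1 had a log2 fold change of 1.61 (adjusted p = 4.56e-05), and 3597 genes were higher and 3676 lower with the block, against 3471 and 3598 without it. For BMF the SE was 0.32 with the block (adjusted p = 8.98e-05), against 0.78 without it (adjusted p = 0.0103). With GC and length offsets 5 other BCL2 family genes were higher and 0 lower, and 4 genes of the protein control list were lower. With limma-voom 0 other family genes were lower. Without single libraries the lower count ran from 0 to 1 for the other family, 0 to 1 for the mitochondrial arm, 2 to 4 for the death receptor arm and 1 to 3 for protein control. Of 39 genes outside the members that were named with a test and rerun, 9 of them named and rerun after their values were seen, 37 were called and 6 of these lost the call under at least 1 alternative. Of the 2 not called, HUWE1 gained a call, also with the replicate block (0.56, adjusted p = 0.0387), and none of the 39 changed sign. Where a value moved, the cause was not tested, except that BMF left the fit by the stricter filter. Depth limits BMF, with 4 to 12 counts in the CC-885 libraries, and BCL2A1, with none, the most among the members.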
